A study of Mus musculus with 10 samples.

Results

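Fgf9 null pancreas was set against control pancreas of mouse embryos over embryonic days 13.5 and 14.5 together, to ask which genes differed by genotype in a way shared by both stages. The comparison used 10 of the 10 bulk RNA sequencing libraries of the series, 4 from null and 6 from control embryos, across all expressed genes and with stage as a term of the model. The null group was labelled Fgf9 -/- and held 2 libraries at E13.5 and 2 at E14.5. The control group held 3 libraries at each stage and mixed Fgf9 +/+ with Fgf9 +/- embryos, so that some control embryos also carried 1 altered allele. All embryos came from the Fgf9 LacZ line, kept on C57BL/6J. Every library was made from pooled organs. Null pools held 6 to 7 pancreata at E13.5 and 3 to 4 at E14.5, and control pools held 7 to 12 at E13.5 and 6 to 8 at E14.5. Whether pools of the same group derive from different litters is not in the labels, and the p-values therefore refer to the spread among these particular pools.

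FGF9 is a secreted fibroblast growth factor that is made by the epithelium and mesothelium of several embryonic organs and acts on FGF receptors of the adjoining mesenchyme. The mesenchyme around the early dorsal pancreas lies next to that of the stomach and the spleen, and the spleen primordium forms in continuity with it. Homeobox factors such as Tlx1, Nkx2-5, Barx1 and Nkx3-2 mark the spleen-forming mesenchyme, and loss of several of them is known to disturb the spleen in mice.

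Total counts were 17736769 to 22798257 in null libraries and 18321734 to 21082589 in control libraries, and 18898 of 54532 genes passed the filter on low counts. Levels are given as CPM, counts scaled to a common library size after normalization between libraries. Fgf9 itself (ENSMUSG00000021974, chromosome 14, 58070547 to 58112720, GRCm38) was at 5.57 and 7.66 CPM in E13.5 null pools against 18.4, 11.3 and 16.2 CPM in E13.5 controls. It was at 11.7 and 6.14 CPM in E14.5 null pools against 13.6, 8.76 and 6.96 CPM in E14.5 controls. The groups were apart at E13.5 and overlapped at E14.5, and the shared log2 difference of -0.66 (SE 0.28) did not pass the test (edgeR adjusted p = 0.35). A gene count does not show which part of a transcript an inserted cassette leaves, so this level does not check the genotype, and the groups are called as labelled. The pancreas label was met by Pdx1, the early pancreatic homeobox factor, at 50.2 to 79.4 CPM in null and 58.6 to 85.9 CPM in control pools, and by the acinar progenitor gene Cpa1, at 1017 to 4171 CPM in null and 861 to 4708 CPM in control pools. In each of the 4 groups the pool numbered 1 had the highest value on the second axis of a principal component analysis, which carried 18.5% of the variance. Counts of genes are therefore also given without both null pools numbered 1.

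Between null and control pancreas, 317 genes rose and 83 fell at a Benjamini-Hochberg threshold of 0.05 in the additive edgeR model. These were 1.68% and 0.439% of the genes tested, and 2.12% in all. Their median change was 2.12-fold for the genes that rose, with a range from 1.28 to 43.6-fold, and 2.11-fold for those that fell, with a range from 1.28 to 22.1-fold. The 3 largest falls were those of the spleen mesenchyme homeobox genes Tlx1, Nkx2-5 and Barx1, and the rises included smooth muscle, matrix, endothelin and angiopoietin, and liver genes. All but 4 of the genes called were protein-coding, 314 of 317 and 82 of 83. With the replicate number as a block within each stage, 569 genes rose and 207 fell, 3.01% and 1.1% of those tested, among them 305 and 79 of the genes called without it. Without both null pools numbered 1, 56 rose and 46 fell, and 54 and 39 of these were among the genes called with all libraries. Without all 4 pools numbered 1, which takes 1 pool from each group, 399 rose and 169 fell, and 235 and 68 of these were among them. Leaving out 1 library at a time gave 135 to 514 genes that rose and 35 to 103 that fell. The count of rises moved by more than 1.5 times without E13.5 null 1 (135), E13.5 null 2 (200), E14.5 null 1 (154), E13.5 control 2 (192), E13.5 control 3 (197), E14.5 control 1 (514), E14.5 control 2 (161) and E14.5 control 3 (182). The count of falls did so without E13.5 null 1 (35), E13.5 null 2 (39), E13.5 control 2 (50) and E14.5 control 2 (53). Of the 400 genes called, 400 kept their direction in each of these 10 omissions, and 112 rises and 31 falls passed the test in all of them. The omissions reuse libraries of the full fit, so a kept direction is not a separate test.

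Homeobox genes of the spleen-forming mesenchyme were the leading falls. Of 11 listed genes 11 were tested, and 5 fell (45.5%, against 0.439% of all genes tested), 0 rose and 6 did not pass. The list had a median log2 difference of -0.37, against -0.02 over all genes tested. The same count of 5 fell in each of the 10 omissions and without both null pools numbered 1. The summed level of the list, to which abundant genes that did not pass contribute most, was 627 to 684 CPM in E13.5 null pools against 726 to 918 CPM in controls, and 408 to 548 CPM in E14.5 null pools against 433 to 665 CPM in controls. In pooled whole tissue, fewer cells of a type and less RNA per cell cannot be told apart. For each of the 5 genes that fell together 1 annotated promoter window is shown here, because these genes are among the largest shared falls. Each window runs from 250 bases before to 50 bases after the annotated start in RefSeq on GRCm38.p6, and capitals mark CG, the dinucleotide that can be methylated and reads the same on both strands. Of 32851 such windows of 300 bases, 94.6% hold at least 1 CG and the median holds 7, and matches to this motif are a description of the letters only.
Tlx1, chr19:45150465-45150764, plus strand: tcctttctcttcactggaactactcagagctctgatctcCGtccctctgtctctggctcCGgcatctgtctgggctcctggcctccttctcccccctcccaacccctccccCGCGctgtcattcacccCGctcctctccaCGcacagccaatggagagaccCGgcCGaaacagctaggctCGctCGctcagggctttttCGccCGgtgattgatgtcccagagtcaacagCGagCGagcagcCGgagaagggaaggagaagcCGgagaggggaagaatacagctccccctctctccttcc
Nkx2-5, chr17:26841516-26841815, minus strand: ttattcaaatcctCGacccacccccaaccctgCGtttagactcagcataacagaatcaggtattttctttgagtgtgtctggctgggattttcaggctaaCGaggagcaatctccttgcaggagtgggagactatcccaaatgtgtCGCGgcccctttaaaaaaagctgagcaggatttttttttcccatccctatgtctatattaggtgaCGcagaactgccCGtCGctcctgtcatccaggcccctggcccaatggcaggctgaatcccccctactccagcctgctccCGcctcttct
Barx1, chr13:48662786-48663085, plus strand: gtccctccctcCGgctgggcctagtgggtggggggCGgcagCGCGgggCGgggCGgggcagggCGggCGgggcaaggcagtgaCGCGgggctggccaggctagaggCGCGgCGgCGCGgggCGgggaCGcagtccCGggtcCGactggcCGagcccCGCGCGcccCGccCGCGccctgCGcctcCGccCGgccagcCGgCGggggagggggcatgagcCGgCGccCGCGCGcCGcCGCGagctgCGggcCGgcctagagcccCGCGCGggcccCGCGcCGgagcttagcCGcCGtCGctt
Nkx3-2, chr5:41764171-41764470, minus strand: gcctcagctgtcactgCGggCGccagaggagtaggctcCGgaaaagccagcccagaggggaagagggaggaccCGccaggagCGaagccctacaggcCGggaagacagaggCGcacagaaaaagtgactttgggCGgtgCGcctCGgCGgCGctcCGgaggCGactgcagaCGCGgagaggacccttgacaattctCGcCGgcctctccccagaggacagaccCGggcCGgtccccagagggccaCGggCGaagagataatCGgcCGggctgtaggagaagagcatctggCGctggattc
Lhx9, chr1:138842395-138842694, minus strand: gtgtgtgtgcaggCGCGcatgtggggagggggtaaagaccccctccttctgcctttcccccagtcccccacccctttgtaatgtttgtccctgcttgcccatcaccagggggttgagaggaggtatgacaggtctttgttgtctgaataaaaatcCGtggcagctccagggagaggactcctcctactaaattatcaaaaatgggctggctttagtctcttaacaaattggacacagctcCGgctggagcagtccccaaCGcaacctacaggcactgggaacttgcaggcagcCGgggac
The window of Barx1 held 50 CG, that of Nkx3-2 held 25, that of Tlx1 16, that of Nkx2-5 9 and that of Lhx9 6. The 5 windows thus lie on both sides of the median, and the genes sit on 5 different chromosomes. On the minus strand, the GENCODE gene begins at 26845009 for Nkx2-5, 41764501 for Nkx3-2 and 138848577 for Lhx9, upstream of these windows. CG counts at other annotated starts were not looked at.

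Tlx1 (ENSMUSG00000025215, chromosome 19, 45150680 to 45156943), a homeobox factor required for spleen formation in mice, was at 0.482 and 0.0861 CPM in E13.5 null pools against 17.9, 15.4 and 19.0 CPM in E13.5 controls. In E14.5 null pools it was at 0.502 and 1.35 CPM, against 10.03, 10.7 and 9.58 CPM in E14.5 controls. The 4 null pools lay far below the 6 controls, with a shared log2 difference of -4.46 (SE 0.47, edgeR adjusted p = 0.00045), a 22.1-fold fall. Barx1 (ENSMUSG00000021381, chromosome 13, 48662998 to 48666507), expressed in the mesenchyme of stomach and spleen, was at 8.09 and 5.98 CPM in E13.5 null pools against 103, 78.1 and 87.0 CPM in controls, and at 10.7 and 13.8 CPM in E14.5 null pools against 82.1, 66.1 and 63.3 CPM in controls. No null pool came near a control pool, and the shared log2 difference was -3.07 (SE 0.22, edgeR adjusted p = 2.1e-05). It stayed called in all 24 alternative settings tried.

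Nkx2-5 (ENSMUSG00000015579, chromosome 17), best known as a heart factor and also expressed in the spleen primordium, was scarce. It was at 0.161 and 0.0861 CPM in E13.5 null pools against 3.12, 3.19 and 4.32 CPM in controls, and at 0.167 and 0 CPM in E14.5 null pools against 1.45, 1.73 and 0.223 CPM in controls. E14.5 control 3 was close to the null pools, and the shared log2 difference was -4.38 (SE 0.72, edgeR adjusted p = 0.0064). Nkx3-2 (ENSMUSG00000049691, chromosome 5), which is needed in mice for spleen formation and for the spleen to separate from the pancreas, was at 4.66 and 4.99 CPM in E13.5 null pools against 29.4, 18.7 and 30.3 CPM in controls. At E14.5 it was at 6.92 and 1.85 CPM in null pools against 13.4, 15.2 and 12.1 CPM in controls. The groups were apart at both stages (log2 difference -2.04, SE 0.30, edgeR adjusted p = 0.0038). Lhx9 (ENSMUSG00000019230, chromosome 1), a LIM homeobox factor, was at 8.25 and 6.97 CPM in E13.5 null pools against 32.4, 25.7 and 17.7 CPM in controls, and at 2.29 and 3.45 CPM in E14.5 null pools against 16.4, 14.01 and 8.85 CPM in controls. It fell by 1.94 in log2 units (SE 0.23, edgeR adjusted p = 0.0011). Among members that did not pass, log2 differences were -0.37 for Wt1, -0.26 for Wnt11, -0.07 for Nr2f2, 0.77 for Tcf21 and 0.99 for Tlx2.

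**Figure D1:**
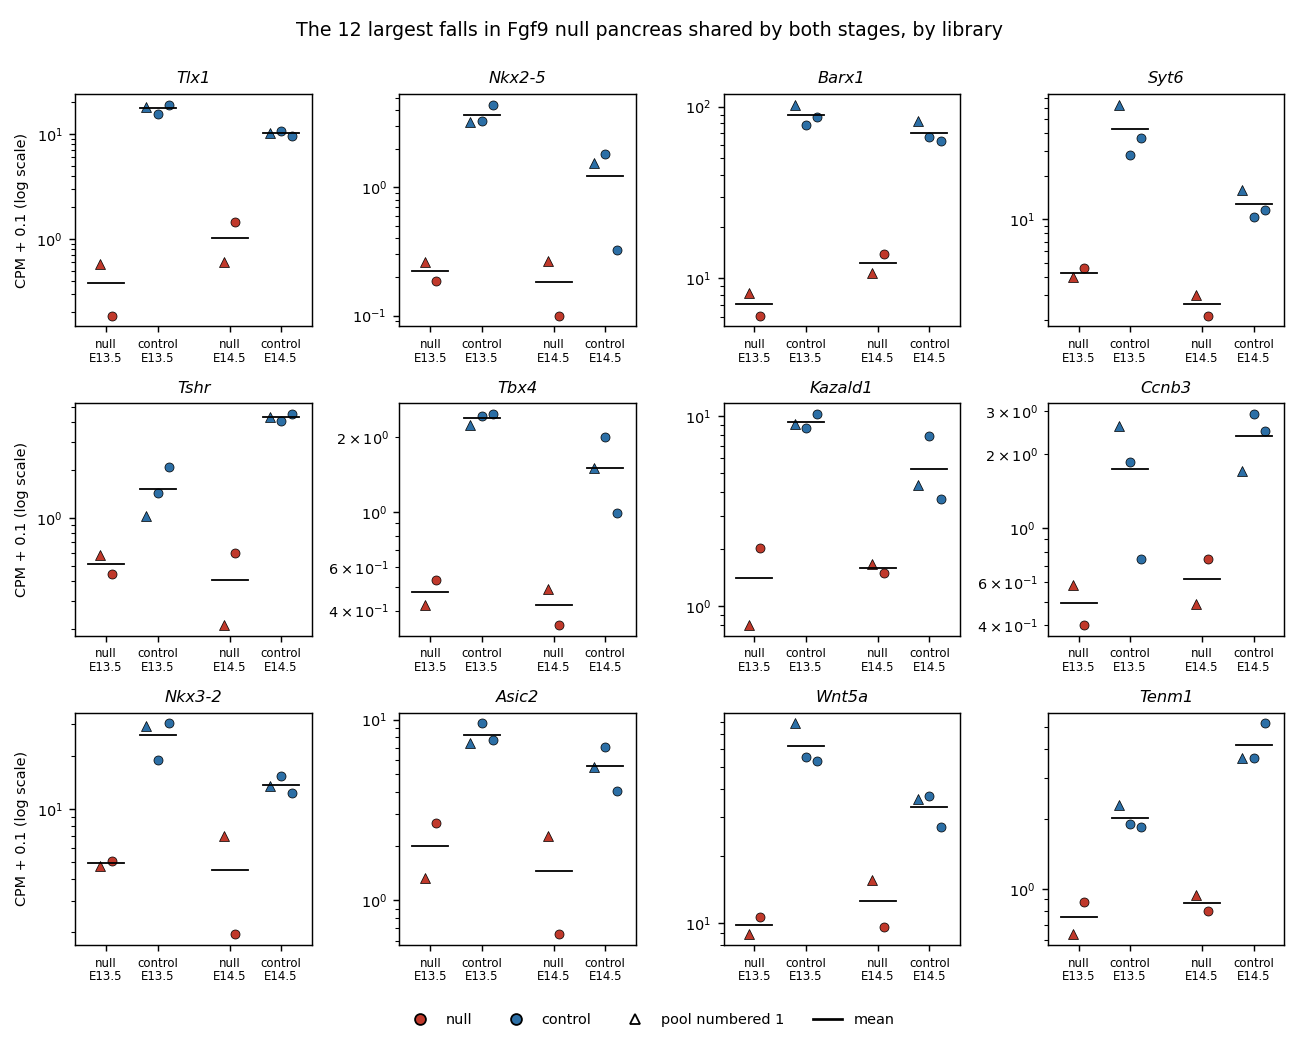
Levels in each library of the 12 genes with the largest shared falls at a mean of at least 1 CPM, as CPM + 0.1 on a log axis, with null and control pools of each stage side by side; points are libraries, triangles are pools numbered 1 and bars are means. The panels show genes chosen to have both null pools below all 3 controls of each stage, and the gap ranges widely, with a shared fall of 22.1-fold for Tlx1 and 8.38-fold for Barx1.

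By symbol, 135 homeobox genes were tested, of which 9 fell (6.67%, against 0.439% of all genes) and 8 rose (5.93%, against 1.68%). The grouping was made after their values were seen, and 5 of the 9 falls are the genes above. The other 4 were the mesenchymal factors Prrx1, Alx4, Tshz3 and Zeb1. Prrx1 was at 50.9 and 35.7 CPM in E13.5 null pools against 118, 81.3 and 78.6 CPM in controls, and at 48.5 and 37.7 CPM in E14.5 null pools against 76.9, 71.1 and 65.7 CPM in controls, all null pools below all controls (log2 difference -0.91, SE 0.15, edgeR adjusted p = 0.0066). Zeb1, a regulator of the mesenchymal state, had a log2 difference of -0.53 (SE 0.12, edgeR adjusted p = 0.029) and lost its call in 6 of the 10 omissions, namely E13.5 null 1 (-0.56), E13.5 null 2 (-0.47), E13.5 control 2 (-0.55), E14.5 null 1 (-0.58), E14.5 null 2 (-0.51) and E14.5 control 2 (-0.55). The homeobox genes that rose included Hlx, Zfhx4, Msx1, Dlx1, Isl2, Lhx2 and Onecut2. In the list of general mesenchyme regulators 17 of 18 genes were tested, and Prrx1 and Zeb1 were the 2 that fell, while 0 rose and the median was 0.06. Vim, the mesenchymal intermediate filament, averaged 933 ± 90 CPM in null pools (SD, n = 4) and 786 ± 120 CPM in control pools (SD, n = 6), without passing the test.

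Wnt5a fell, while the Wnt ligands as a list had a median log2 difference of 0.04. Wnt5a (ENSMUSG00000021994, chromosome 14, 28504750 to 28527448), a ligand of noncanonical Wnt signalling, was at 8.78 and 10.6 CPM in E13.5 null pools against 78.4, 55.1 and 53.3 CPM in controls, and at 15.5 and 9.49 CPM in E14.5 null pools against 35.8, 36.8 and 26.8 CPM in controls. The null pools were below all controls at both stages (log2 difference -2.03, SE 0.25, edgeR adjusted p = 0.0013). Of 14 Wnt and R-spondin genes tested of 17 listed, 2 fell and 0 rose. The other was Wnt2b (log2 difference -0.79, SE 0.18, edgeR adjusted p = 0.039), which kept its call in 3 of 10 omissions. Its value ran from -0.83 without E13.5 control 3 to -0.69 without E13.5 null 2 among the omissions that ended the call, the others being E13.5 null 1, E13.5 control 1, E13.5 control 2, E14.5 null 2 and E14.5 control 2. Among 19 Wnt targets and antagonists, Notum, which removes the lipid from Wnt proteins, fell by 1.26 in log2 units (SE 0.21, edgeR adjusted p = 0.0068), and the antagonist gene Sfrp2 rose by 1.02 (SE 0.16, edgeR adjusted p = 0.0052). Without both null pools numbered 1 they had log2 differences of -1.17 and 0.76, which did not pass with 8 libraries, and the list held 2 rises when E14.5 control 1 was left out and 3 when E14.5 null 2 was.

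In the FGF pathway 1 gene was called, where 2.12% of all genes were. Of 15 feedback targets, which FGF signalling switches on, Spry1 alone fell (6.67%, against 0.439% of all genes), a share that rests on 1 gene. The list held 0 rises and a median of -0.06, and 2 genes fell without E14.5 null 2. Its sum was 530 to 606 CPM in E13.5 null pools against 576 to 698 CPM in controls, with overlap. At E14.5 it was 450 to 494 CPM in null pools against 514 to 543 CPM in controls, without overlap. Spry1 (ENSMUSG00000037211, chromosome 3), an intracellular inhibitor of receptor tyrosine kinase signalling, was at 16.8 and 16.2 CPM in E13.5 null pools against 32.1, 37.5 and 31.6 CPM in controls, and at 19.1 and 19.7 CPM in E14.5 null pools against 27.0, 33.7 and 30.1 CPM in controls. The 4 null pools lay within a narrow band below every control (log2 difference -0.84, SE 0.12, edgeR adjusted p = 0.0025). Other targets did not pass, with log2 differences of -0.48 for Spry4, -0.37 for Etv5, -0.23 for Etv4 and 0.19 for Dusp6. Of 13 ligand and receptor genes tested of 14 listed, 0 were called, and Fgfr3, at 30.2 to 51.6 CPM in null and 21.0 to 35.4 CPM in control pools, had a log2 difference of 0.53 (SE 0.14, edgeR adjusted p = 0.083). With the replicate block Fgfr3 passed (edgeR adjusted p = 0.023, with a range over the alternatives of 0.0015 to 0.76).

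In the retinoic acid list of 14 genes, Aldh1a2 and Crabp1 fell and 1 gene rose. Aldh1a2, which makes retinoic acid and is expressed in mesothelium and mesenchyme, was at 30.2 and 25.6 CPM in E13.5 null pools against 69.3, 56.3 and 49.4 CPM in controls, and at 49.3 and 34.5 CPM in E14.5 null pools against 91.6, 83.6 and 63.9 CPM in controls. The groups were apart within each stage (log2 difference -0.995, SE 0.14, edgeR adjusted p = 0.0026). Crabp1, a cellular retinoic acid binding protein, averaged 10.2 ± 2.1 CPM in null and 19.8 ± 2.8 CPM in control pools (SD, n = 4 and 6; log2 difference -0.96, SE 0.16, edgeR adjusted p = 0.0077), and did not pass without both null pools numbered 1 (-1.003). Among mesothelial markers, 15 tested, Aldh1a2 and Lrrn4 fell while Msln and C3 rose. Lrrn4 (log2 difference -0.74) lost its call without E13.5 null 1 (-0.70), E13.5 null 2 (-0.66), E13.5 control 2 (-0.70), E14.5 null 2 (-0.69) or E14.5 control 2 (-0.73). Msln was at 0.589 and 0.904 CPM in E13.5 null pools against 0.0931, 0.238 and 0.348 CPM in controls, and at 7.65 and 6.94 CPM in E14.5 null pools against 0.552, 0.865 and 0.779 CPM in controls. Its level was low at E13.5 and the stages were apart in level (shared log2 difference 2.68, SE 0.41, edgeR adjusted p = 0.0042). The summed level of the mesothelial list was 712 to 1039 CPM in null and 662 to 1064 CPM in control pools.

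The neurotrophin receptor gene Ntrk2 (ENSMUSG00000055254, chromosome 13, 58806569 to 59133970) had the smallest p of all genes. It was at 17.1 and 20.4 CPM in E13.5 null pools against 62.0, 59.0 and 53.5 CPM in controls, and at 18.1 and 14.7 CPM in E14.5 null pools against 59.0, 70.7 and 65.4 CPM in controls. Null pools thus varied little and lay well below every control (log2 difference -1.81, SE 0.12, edgeR adjusted p = 1.1e-05), and the call held in all 24 alternative settings. Of 27 axon guidance and neurotrophin genes 5 rose and 2 fell (Ntrk2 and the ephrin receptor gene Epha4), with a median of 0.07, and 1 rose and 2 fell without both null pools numbered 1. The list held 2 falls without E13.5 control 3 or E14.5 null 1 and 1 fall in the other 8 omissions, Epha4 being called in 2 of the 10. Sema3e, a repulsive guidance ligand for endothelial and neural cells, averaged 11.1 ± 1.4 CPM in null and 3.39 ± 0.79 CPM in control pools (SD, n = 4 and 6; log2 difference 1.72, SE 0.19, edgeR adjusted p = 0.00072). The guidance receptor gene Robo2 and the ephrin gene Efnb2 rose 2.05-fold and 1.65-fold. Without E14.5 control 1 or E14.5 null 2, 8 genes of that list rose, and without all 4 pools numbered 1, 8 rose and 2 fell.

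The remaining large falls were in genes of mixed function. Syt6, a synaptotagmin of vesicle fusion, was at 3.86 and 4.47 CPM in E13.5 null pools against 62.8, 28.2 and 36.7 CPM in controls, and at 2.90 and 2.05 CPM in E14.5 null pools against 16.1, 10.3 and 11.5 CPM in controls, well apart at both stages (log2 difference -2.89, SE 0.29, edgeR adjusted p = 0.00034). The thyrotropin receptor gene Tshr averaged 0.359 ± 0.18 CPM in null and 2.81 ± 1.6 CPM in control pools. Tbx4, a T-box factor known from hindlimb and lung mesenchyme, averaged 0.348 ± 0.080 and 1.84 ± 0.59 CPM, and Kazald1, a secreted protein with an insulin-like growth factor binding domain, 1.40 ± 0.52 and 7.24 ± 2.7 CPM (SD, n = 4 null and 6 control). Their log2 differences were -2.72, -2.36 and -2.30, and each kept its call in the 10 omissions, though Tbx4 did not pass without both null pools numbered 1 (-2.42). Asic2, an acid-sensing ion channel, and Tenm1, a teneurin, fell 4.11-fold and 3.90-fold, and without those pools Tenm1 did not pass (-1.87). Ccnb3, a B-type cyclin, fell 4.25-fold at a mean of 0.456 CPM in null and 1.958 CPM in control pools, and lost its call in 7 of 10 omissions (E13.5 null 1 and 2, E13.5 control 1 and 2, E14.5 null 1, E14.5 control 2 and 3), with log2 differences of -2.22 to -1.89.

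Contractile genes of smooth muscle rose. Of 14 tested 8 rose (57.1%, against 1.68% of all genes), 0 fell, and the median log2 difference was 1.13. Acta2 (ENSMUSG00000035783, chromosome 19, 34241090 to 34255590), smooth muscle actin, was at 140 and 107 CPM in E13.5 null pools against 36.1, 46.2 and 34.5 CPM in controls, and at 246 and 131 CPM in E14.5 null pools against 61.4, 42.5 and 38.6 CPM in controls. Every null pool was above every control (log2 difference 1.83, SE 0.18, edgeR adjusted p = 0.00034). The enteric actin gene Actg2 rose 5.71-fold, the myosin light chain gene Myl9 2.20-fold and the calponin gene Cnn1 7.27-fold, and Myh11, Tpm2, Synpo2 and Cald1 were also called. Reads of near-identical actin genes may be shared between them. The summed level of the list was 670 to 1200 CPM in null and 358 to 541 CPM in control pools, without overlap. Without both null pools numbered 1, 3 genes of the list rose (Acta2, Actg2 and Myl9), and leaving out E13.5 null 1 or E14.5 null 1 left 5, while 7 rose without all 4 pools numbered 1. Cnn1 did not pass without E14.5 null 1 (log2 difference 1.93, edgeR adjusted p = 0.056, with a range over the alternatives of 6.5e-18 to 0.40).

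Matrix genes of fibroblasts rose as well, 7 of 21 tested (33.3%) with 0 falls, a median of 0.55 and a positive difference in 100% of the list. Lum (ENSMUSG00000036446, chromosome 10, 97565128 to 97572703), a small proteoglycan that organises collagen fibrils, was at 208 and 153 CPM in E13.5 null pools against 53.9, 72.4 and 63.6 CPM in controls, and at 302 and 245 CPM in E14.5 null pools against 108, 82.2 and 94.9 CPM in controls. All null pools lay above all controls (log2 difference 1.52, SE 0.12, edgeR adjusted p = 3.6e-05). The related proteoglycan Dcn averaged 490 ± 170 CPM in null and 207 ± 55 CPM in control pools (SD, n = 4 and 6; log2 difference 1.22, SE 0.13, edgeR adjusted p = 0.00045). Postn and Bgn rose 1.61-fold and 1.54-fold, and Fn1, Mfap4 and Col1a1 were also called. Only Lum and Dcn passed without both null pools numbered 1, and 4 genes passed when E13.5 null 1, E13.5 control 3, E14.5 null 1, E14.5 control 2 or E14.5 control 3 was left out, while 8 rose without all 4 pools numbered 1. Of 20 basement membrane genes 3 rose and 0 fell, the collagen IV genes Col4a6 (3.34-fold) and Col4a5 (1.91-fold) and the laminin gene Lama2 (2.60-fold), in each of the 10 omissions, while only Col4a6 passed without both null pools numbered 1. Without all 4 pools numbered 1, 3 basement membrane genes rose. Outside these lists, Mgp, an inhibitor of calcification and of BMP signalling, rose 3.90-fold and the calponin gene Cnn2 1.73-fold.

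**Figure D2:**
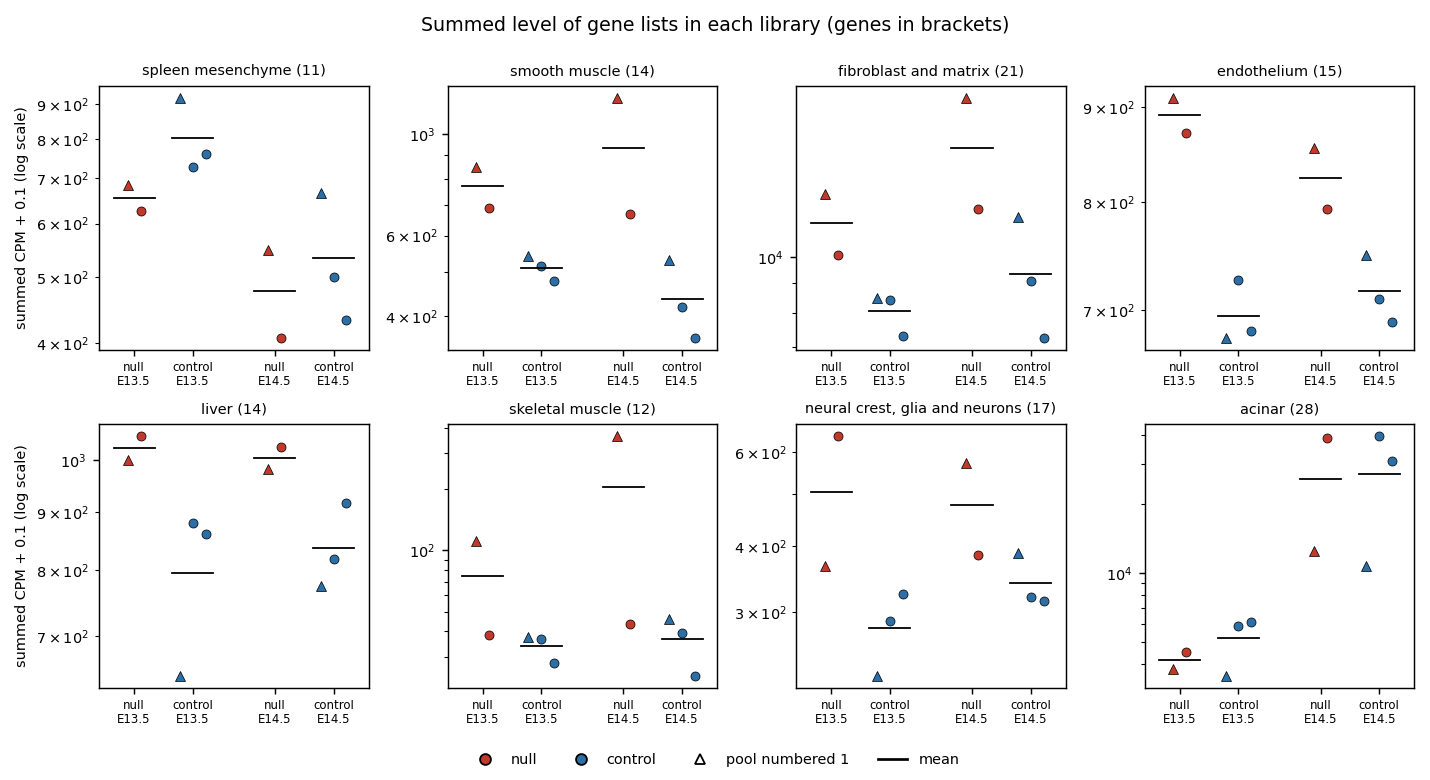
Summed level of 8 gene lists in each library, as CPM + 0.1 on a log axis, with null and control pools of each stage side by side; points are libraries, triangles are pools numbered 1 and bars are means. Smooth muscle genes sum to 670 to 1200 CPM in null and 358 to 541 CPM in control pools, skeletal muscle genes reach 111 and 364 CPM in the null pools numbered 1, and acinar genes follow the stage and the pool number.

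Ligands that act on vessels and smooth muscle were among the rises. Of 17 angiopoietin, VEGF, endothelin and Cxcl12 pathway genes 6 rose (35.3%) and 0 fell. Edn1 (ENSMUSG00000021367, chromosome 13, 42301476 to 42307990), the vasoconstrictor endothelin, was at 10.3 and 9.34 CPM in E13.5 null pools against 4.05, 3.57 and 3.28 CPM in controls, and at 10.9 and 8.39 CPM in E14.5 null pools against 3.21, 3.00 and 3.06 CPM in controls. The groups were tight and apart (log2 difference 1.53, SE 0.17, edgeR adjusted p = 0.00056). Angpt1, which activates the Tie2 receptor of endothelium, was at 53.1 and 35.1 CPM in E13.5 null pools against 9.64, 6.53 and 12.8 CPM in controls, and at 24.6 and 19.0 CPM in E14.5 null pools against 12.4, 9.98 and 12.1 CPM in controls, above the controls at both stages (shared log2 difference 1.59, SE 0.25, edgeR adjusted p = 0.0049). Its log2 difference was 2.19 at E13.5 and 0.92 at E14.5, and their difference (SE 0.38, edgeR unadjusted p = 0.0054) did not pass after adjustment over all genes (edgeR adjusted p = 0.99996). The chemokine gene Cxcl12 and the endothelin receptor gene Ednrb rose 1.99-fold and 1.88-fold, and Ackr3, a scavenger receptor for Cxcl12, and Ednra were also called. Edn1, Cxcl12 and Angpt1 were the 3 that passed without both null pools numbered 1, while 6 rose without all 4 pools numbered 1.

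Among 15 endothelial identity genes 1 was called, Tie1, and 93.3% had a positive difference, with a median of 0.30. Tie1, an endothelial receptor of the angiopoietin system, was at 78.6 and 78.5 CPM in E13.5 null pools against 49.7, 53.4 and 54.8 CPM in controls, and at 75.2 and 70.8 CPM in E14.5 null pools against 51.0, 45.0 and 46.4 CPM in controls. Its null pools were higher by a nearly constant step (log2 difference 0.60, SE 0.08, edgeR adjusted p = 0.0015). The summed endothelial level was 793 to 910 CPM in null and 676 to 750 CPM in control pools, and its part in the rise of vessel ligands was not tested. Without E14.5 control 1, 4 endothelial genes passed, and without E14.5 null 2, 3 did. Vwf, made by endothelium and megakaryocytes, rose 2.81-fold and the platelet integrin gene Itga2b 2.46-fold, the 2 of 11 megakaryocyte genes that were called. Of 9 pericyte genes 2 rose, Ndufa4l2 (2.54-fold) and Mcam (1.32-fold), and Mcam lost its call in 8 omissions and with the replicate block (edgeR adjusted p = 0.055, with a range over the alternatives of 0.0058 to 0.52). In those 8 omissions (E13.5 null 1 and 2, E13.5 control 1 and 3, E14.5 null 1 and 2, E14.5 control 2 and 3) its log2 difference was 0.35 to 0.45.

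In the BMP and TGF-beta list of 22 genes 5 rose (22.7%) and 1 fell, with a median of 0.51. The ligand genes Tgfb2 and Tgfb1 rose 2.11-fold and 1.49-fold, Ltbp1, which stores latent TGF-beta in the matrix, 2.34-fold, while Tgfb3 was also called. Tgfbi, a matrix protein induced by TGF-beta, fell (log2 difference -1.09, edgeR adjusted p = 0.035), and the list held 0 falls without E13.5 null 1, E13.5 null 2, E13.5 control 2, E13.5 control 3 or E14.5 null 2. Without both null pools numbered 1, 0 genes of the list rose and 1 fell, with log2 differences of 1.23 against 0.91 for Ltbp1 and 1.08 against 0.79 for Tgfb2, with all libraries against the 8. In the fit without all 4 pools numbered 1, 5 rose and 2 fell. Hey2, a Notch effector, was the 1 call of 15 Notch genes, rising 2.12-fold with all libraries and having a log2 difference of 0.87, which did not pass, without both null pools numbered 1, and 2 Notch genes rose without E13.5 control 3 or E14.5 control 1. Without all 4 pools numbered 1, 2 Notch genes rose. Gli1, a hedgehog target, was the 1 call of 12 hedgehog genes. Gli1 was at 7.98 and 6.93 CPM in E13.5 null pools against 3.91, 1.71 and 5.07 CPM in controls, and at 18.2 and 9.99 CPM in E14.5 null pools against 6.42, 2.19 and 3.51 CPM in controls (log2 difference 1.44, SE 0.33, edgeR adjusted p = 0.041). It lost its call in 7 omissions (E13.5 null 1 and 2, E13.5 control 1 and 2, E14.5 null 1, E14.5 control 2 and 3), with log2 differences of 1.16 to 1.57. Egr1, an immediate early gene, was at 34.0 and 33.7 CPM in E13.5 null pools against 11.5, 13.8 and 13.6 CPM in controls, and at 32.5 and 35.2 CPM in E14.5 null pools against 21.1, 19.4 and 20.4 CPM in controls. It was the 1 call of 14 immediate early and heat shock genes (log2 difference 1.07, SE 0.13, edgeR adjusted p = 0.0012), and 2 were called without E13.5 control 2.

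Several large rises were in genes of low level in controls. Gdf2, which encodes the circulating ligand BMP9, was at 4.98 and 1.55 CPM in E13.5 null pools against 0.512, 0 and 0 CPM in controls, and at 1.28 and 10.44 CPM in E14.5 null pools against 0.301, 0.0577 and 0 CPM in controls. The null pools varied widely but lay above all controls (log2 difference 4.81, SE 0.87, edgeR adjusted p = 0.011), and the call was lost without E13.5 null 1 (log2 difference 4.57, edgeR adjusted p = 0.060, with a range over the alternatives of 1.9e-22 to 0.32). The nuclear receptor gene Nr1h5 and the collectin genes Colec10 and Colec11, lectins of innate immunity, averaged 9.97 ± 7.2, 6.82 ± 3.8 and 6.30 ± 2.3 CPM in null pools, against 0.717 ± 0.47, 0.541 ± 0.37 and 0.621 ± 0.41 CPM in controls (SD, n = 4 and 6). They rose 14.4-fold, 12.3-fold and 10.2-fold, in every omission. Whether the rises of Gdf2, Nr1h5, Colec10 and Colec11 belong with those of the liver genes below was not tested. Trac (ENSMUSG00000076928, chromosome 14, 54220521 to 54224206), the constant region of the T-cell receptor alpha chain, was at 11.2 and 8.00 CPM in E13.5 null pools against 1.16, 0.762 and 1.19 CPM in controls, and at 10.9 and 9.49 CPM in E14.5 null pools against 2.01, 0.519 and 0.445 CPM in controls. Its null pools were alike and far above the controls (log2 difference 3.27, SE 0.34, edgeR adjusted p = 0.00045). It was the 1 call of 10 lymphoid genes tested of 16 listed. It lies on the chromosome that carries Fgf9, which is at 58070547 to 58112720. Of 645 genes tested on that chromosome 2.79% were called, against 2.12% over all genes and 3.76% on chromosome X. A share over a whole chromosome cannot show a difference limited to genes near Fgf9, and such a difference was not tested.

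**Figure D3:**
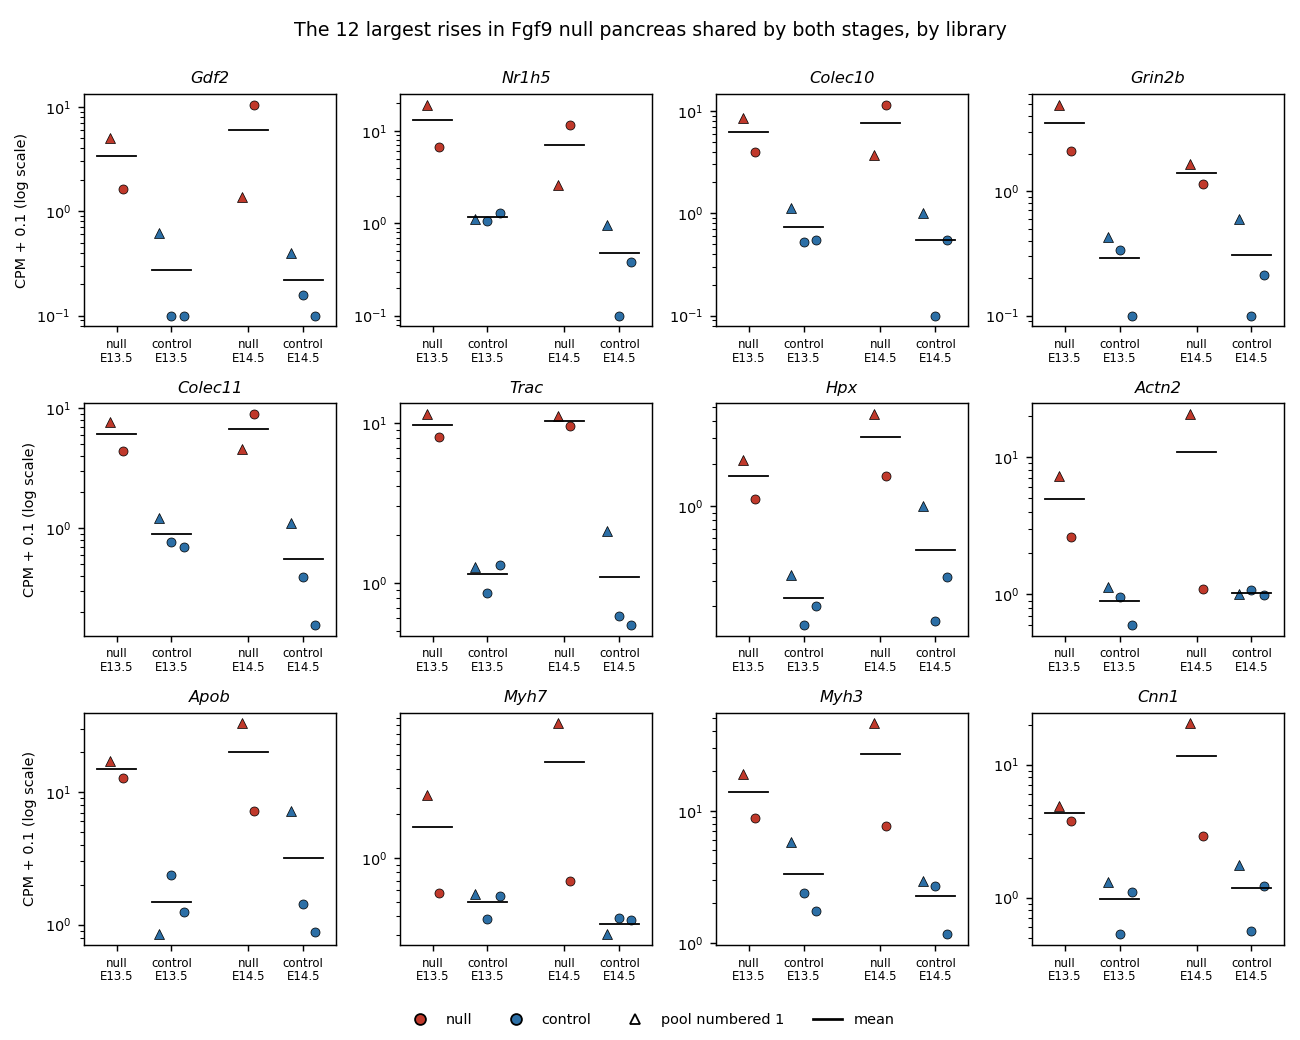
Levels in each library of the 12 genes with the largest shared rises among those with a mean of at least 1 CPM and both null pools above all controls at each stage, as CPM + 0.1 on a log axis, with null and control pools of each stage side by side; points are libraries, triangles are pools numbered 1 and bars are means. Trac lies between 8.00 and 11.2 CPM in the 4 null pools, while Actn2 ranges from 0.999 to 20.5 CPM in null pools and is highest in the null pools numbered 1.

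Transcripts of liver and striated muscle rose in these pancreas pools. Of 14 liver genes 8 rose (57.1%) and 0 fell, with a median of 1.49. Alb, serum albumin, was at 95.6 and 53.7 CPM in E13.5 null pools against 8.57, 22.96 and 6.21 CPM in controls, and at 116 and 114 CPM in E14.5 null pools against 38.7, 14.6 and 5.07 CPM in controls, all null pools above all controls (log2 difference 2.56, SE 0.43, edgeR adjusted p = 0.0070). The fetal gene Afp rose 2.63-fold and the lipoprotein gene Apob 8.16-fold, while Ttr (-0.12), Hnf4a (0.07) and Ambp (-0.04) did not pass. The list summed to 982 to 1049 CPM in null and 646 to 916 CPM in control pools. Without both null pools numbered 1, 0 of the 14 passed, with log2 differences of 2.33 for Alb, 2.32 for Apob and 1.01 for Afp, and leaving out E13.5 null 1 or E14.5 null 1 left 3, while 5 rose without all 4 pools numbered 1. Of 12 skeletal muscle genes 4 rose (33.3%), the embryonic myosin gene Myh3, the actin genes Actc1 and Acta1, and Myl1. Myh3 was at 18.7 and 8.69 CPM in E13.5 null pools against 5.68, 2.29 and 1.64 CPM in controls, and at 45.8 and 7.54 CPM in E14.5 null pools against 2.86, 2.59 and 1.06 CPM in controls, with the null pools numbered 1 highest (log2 difference 2.86, SE 0.52, edgeR adjusted p = 0.011). The list summed to 111 and 364 CPM in the null pools numbered 1, 38.2 and 43.4 CPM in the other null pools and 24.1 to 45.7 CPM in controls. In the fit without both null pools numbered 1, 0 rose, and in that without all 4 pools numbered 1, 1 rose. With 1 library left out, 0 rose without E13.5 null 1, 1 without E14.5 null 1, 2 without E14.5 control 2 or 3 and 7 without E14.5 null 2. Without E13.5 null 1, Myh3 had a log2 difference of 2.88 and did not pass. Without E14.5 null 1, Actc1, Acta1 and Myl1 had log2 differences of 1.84, 1.69 and 1.57 and did not pass, and without E13.5 null 1 they had 2.54, 2.60 and 2.59 and did not pass. Acta1 also lost its call without E14.5 control 2 (2.80) or E14.5 control 3 (2.55), and Myl1 without E13.5 control 1 (2.64), E13.5 control 2 (2.65), E14.5 control 2 (2.48) or E14.5 control 3 (2.52). The heart and slow muscle genes Actn2 and Myh7 rose 8.41-fold and 8.02-fold with all libraries and had log2 differences of 0.98 and 0.75 without those 2 pools, and Myh7 did not pass with the replicate block (edgeR adjusted p = 0.077, with a range over the alternatives of 2e-07 to 0.80). Without E14.5 null 1 these log2 differences were 1.82 and 1.66, and without E13.5 null 1 they were 2.89 and 2.92, with neither gene called. Actn2 lost its call also without E14.5 control 2 (3.03) or E14.5 control 3 (3.00), and Myh7 without any 1 of the 6 controls (2.79 to 3.16). The part of tissue next to the pancreas in these values was not tested.

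Of 17 neural crest, glial and neuronal genes 4 rose and 0 fell, with a median of 1.09. Foxd3, an early neural crest factor, averaged 9.11 ± 2.8 CPM in null and 3.04 ± 1.0 CPM in control pools, and Sox10, the factor of Schwann and enteric glial cells, 26.1 ± 4.0 and 13.4 ± 4.5 CPM (SD, n = 4 null and 6 control). Sox10 lost its call without E13.5 null 2 (0.97), E13.5 control 2 (0.92), E14.5 null 1 (0.84), E14.5 control 2 (0.92) or E14.5 control 3 (0.95). The summed list was at 366 and 642 CPM in E13.5 null pools against 228 to 324 CPM in controls, and at 572 and 383 CPM in E14.5 null pools against 314 to 388 CPM in controls, which overlapped at E14.5. The number called was 11 with the replicate block, 11 without E14.5 control 1, 11 without all 4 pools numbered 1, and 0 without both null pools numbered 1. It was 2 without E13.5 null 1, E13.5 null 2, E13.5 control 2, E14.5 null 1, E14.5 control 2 or E14.5 control 3. The stomach list moved with Barx1, its most abundant member, to 21.6 to 35.1 CPM in null pools against 74.4 to 108 CPM in controls, and Gata5 was the 1 of 8 that rose. Gata5 averaged 8.69 ± 3.7 CPM in null and 2.09 ± 1.4 CPM in control pools, and stayed called only without E14.5 control 1 or E14.5 null 2, with log2 differences of 1.78 to 2.03 in the other 8 omissions.

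**Figure D4:**
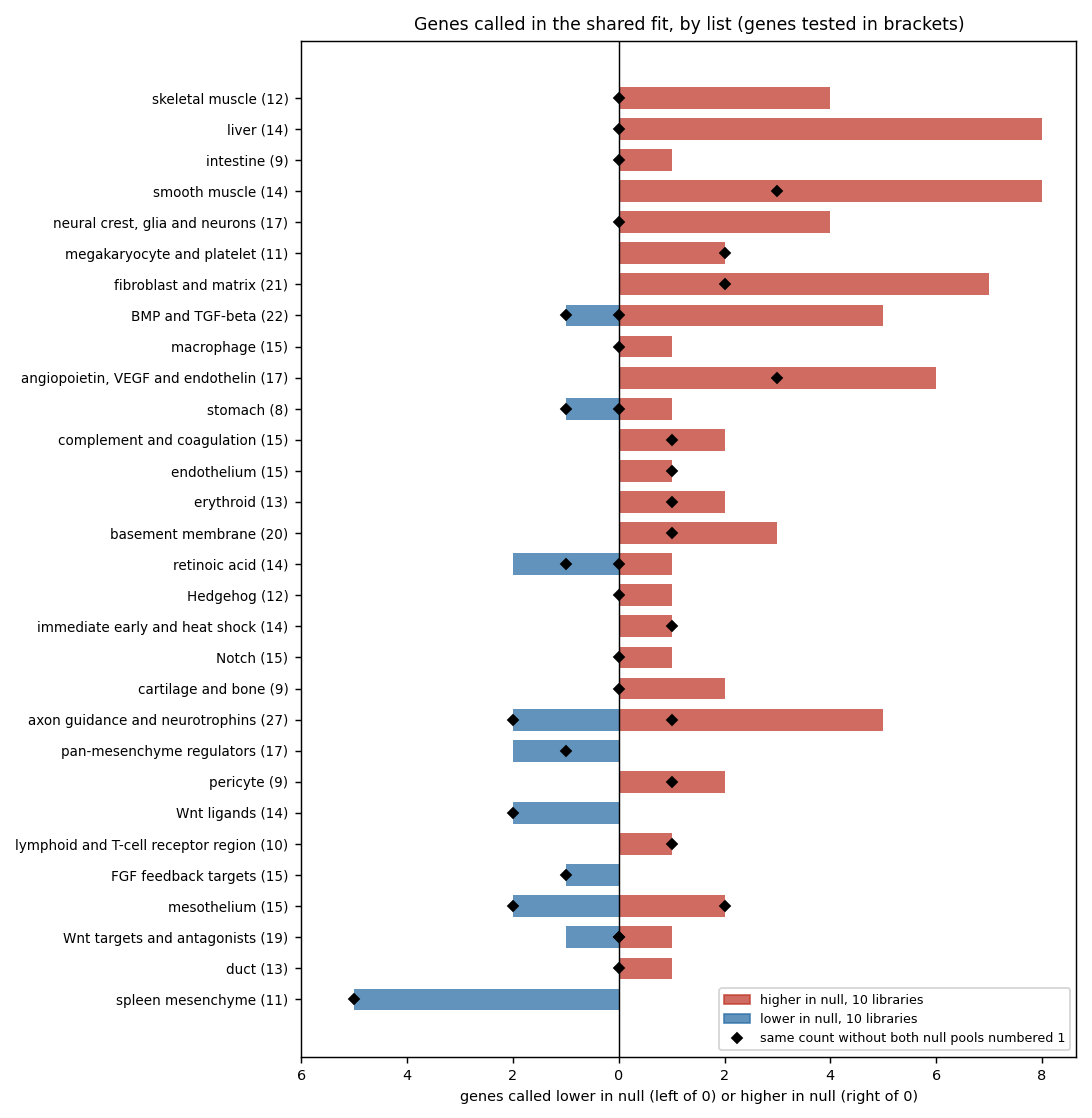
Number of genes called lower (left of 0) or higher (right of 0) in null pancreas for each list with at least 1 call, with the genes tested in brackets; bars show the fit on 10 libraries and diamonds the fit without both null pools numbered 1. Spleen mesenchyme keeps 5 falls in both fits, smooth muscle has 8 and 3 rises, and liver has 8 and 0.

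Counts of calls among genes of the pancreatic epithelium were close to the share called over all genes. Of 16 progenitor, 28 acinar, 14 endocrine progenitor and 20 hormone-positive endocrine genes, 0 passed in either direction, against 2.12% of all genes. At an unadjusted p, 2339 of all 18898 genes were under 0.05. Ptf1a, the acinar and progenitor factor, was at 7.605 and 10.3 CPM in E13.5 null pools against 9.17, 16.2 and 15.9 CPM in controls, and at 20.8 and 39.5 CPM in E14.5 null pools against 24.4, 56.5 and 44.0 CPM in controls, with overlap at both stages (log2 difference -0.53, 95% interval -1.07 to -0.00). The null pool was below the control pool of the same number in 4 of 4 pairs, and the blocked fit did not pass (log2 difference -0.42, edgeR adjusted p = 0.056, with a range over the alternatives of 0.0081 to 0.87). The intervals were -0.43 to 0.18 for Pdx1, -0.46 to 0.37 for the progenitor and duct factor Sox9, -0.47 to 0.37 for the endocrine progenitor factor Neurog3, -0.72 to 0.36 for Cpa1, -0.63 to 0.88 for Ins2 (insulin) and -0.61 to 0.36 for Gcg (glucagon). Each contains 0 except that of Ptf1a, whose upper end is next to 0. Acinar genes summed to 3802 and 4522 CPM in E13.5 null pools and 3561 to 6094 CPM in controls, and to 12460 and 38961 CPM in E14.5 null pools and 10743 to 39569 CPM in controls, with the pools numbered 1 lowest in each group. With the replicate block, 1 progenitor gene (Gata6), 2 acinar genes and 1 hormone-positive endocrine gene rose and 1 endocrine progenitor gene (Runx1t1) fell. Of 13 duct genes 1 rose, the carbonic anhydrase gene Car2, which lost its call in 7 omissions. These were E13.5 null 1, E13.5 control 2 and 3, E14.5 null 1 and 2, and E14.5 control 2 and 3, where its log2 difference was 0.78 to 1.05.

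No gene of the cell cycle (26 tested), cholesterol synthesis (18), oxidative phosphorylation (20), hypoxia and glycolysis (15) or interferon (19) lists was called, a count close to the 2.12% called over all genes. With the replicate block 1 cell cycle gene and 1 cholesterol gene fell, and 1 gene rose and 1 fell in each of the hypoxia and interferon lists. The cell cycle list had a negative difference for all 26 of its genes with a median of -0.19, and cholesterol synthesis for all 18 with a median of -0.21, where 47.0% of all genes tested had a positive one. Cell cycle genes summed to 4671 and 5013 CPM in E13.5 null pools against 5110 to 5840 CPM in controls, and to 4733 and 5242 CPM in E14.5 null pools against 5035 to 6166 CPM in controls. The mitotic kinase gene Aurka, at 57.6 to 63.6 CPM in null and 64.0 to 82.3 CPM in control pools, had the smallest p of that list (log2 difference -0.29, SE 0.09, edgeR adjusted p = 0.14). Among blood cells, the erythroid anion exchanger gene Slc4a1 rose 2.28-fold, 1 of 2 genes called of 13 tested, while the summed erythroid level was 1468 to 3082 CPM in null and 1331 to 2813 CPM in control pools. The macrophage gene Adgre1 (1.62-fold) was the 1 of 15 called. Adgre1 passed in 2 of the 10 omissions and had log2 differences of 0.56 to 0.77 in the 8 others, and 4 macrophage genes rose without E14.5 control 1. Slc4a1 lost its call without E13.5 null 1 (log2 difference 1.01), E14.5 null 2 (0.93) or E14.5 control 2 (1.15). The liver list, summed above, moved in the same direction, and its part in the erythroid values was not tested.

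The genotype difference was then compared between stages. Tested at each stage in the fit of the 4 groups, 58 genes were called at E13.5 (0.307%) and 21 at E14.5 (0.111%). In that fit 286 of the 317 rises and 59 of the 83 falls were called at neither stage. These counts depend on the fit. The E13.5 libraries alone gave 155 rises and 61 falls, among them 120 and 40 of the shared calls. The E14.5 libraries alone gave 0 rises and 2 falls. Of the genes called, 25 rises and 24 falls were also called at E13.5, 15 and 6 at E14.5, and 9 and 6 at both. Among the 317 rises both null pools lay above all controls at each stage for 285 genes, and among the 83 falls below all controls for 75, against 4.16% and 2.19% of all genes tested. All 4 null pools lay above all 6 controls for 225 of the rises and below all 6 for 58 of the falls, against 2.35% and 0.863% of all genes tested. The model used the same libraries, so these counts describe the calls and do not test them. Of the 58 genes called at E13.5, 55 had the same sign at E14.5, and 45 did not overlap there in that direction. Over all genes tested, 23.7% did not overlap at E14.5, counted in either direction. Of the 21 called at E14.5, all 21 had the same sign and did not overlap at E13.5, against 23.6% in either direction. The stages share no library, but the stage calls used 1 estimate of spread from all 10 libraries. These counts are therefore not an independent check. Across 15376 genes with a mean of at least 1 CPM the log2 differences of the stages correlated at 0.51 (Pearson r across genes, which are not independent replicates).

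**Figure D5:**
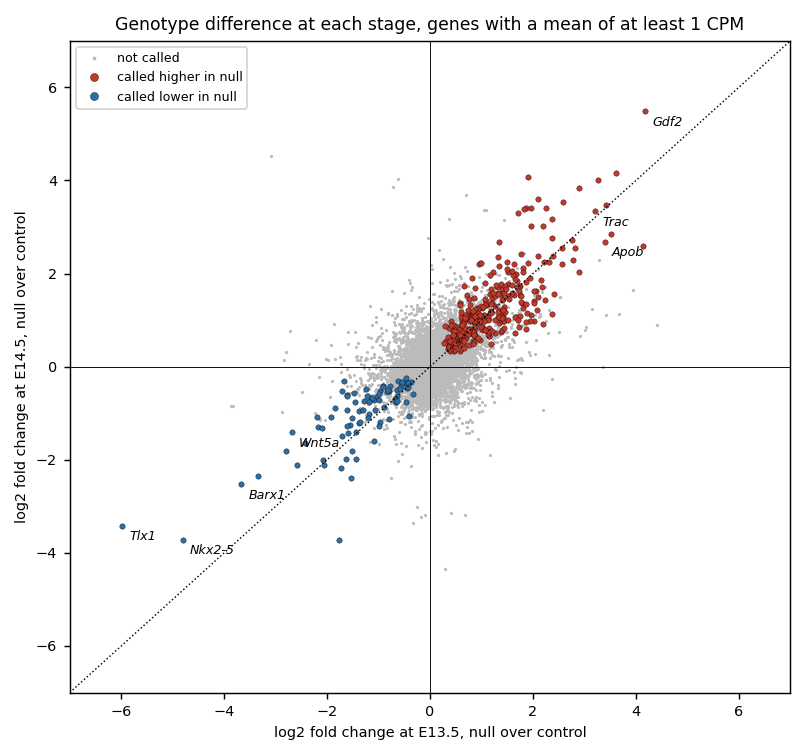
Log2 difference, null over control, at E13.5 (horizontal axis) and at E14.5 (vertical axis) for genes with a mean of at least 1 CPM; coloured points are genes called in the shared fit and the dotted line marks equal differences. Called genes lie in the 2 quadrants of equal sign, which the shared fit favours, and falls such as Tlx1 (-5.99 and -3.42) and Barx1 (-3.67 and -2.53) lie above the line, with the smaller difference at E14.5.

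The median log2 difference of the rises was 1.06 at E13.5 and 1.07 at E14.5, and that of the falls was -1.23 at E13.5 and -0.87 at E14.5. No gene was called for a difference of the genotype effect between stages (edgeR, 454 genes at an unadjusted p under 0.05, 4 called by DESeq2 and 0 by limma-voom). With the replicate block, 13 were called. The log2 differences of Tlx1 were -5.99 at E13.5 and -3.42 at E14.5, and their difference of 2.57 (SE 0.68, edgeR unadjusted p = 0.0024) did not pass after adjustment over all genes (edgeR adjusted p = 0.99996). Of the 58 genes called at E13.5, 9 were not called in the shared fit, among them Htra3, Smoc2, Rtl3 and Nfam1. The serine protease gene Htra3, with the smallest p for a stage difference, was at 27.1 and 22.3 CPM in E13.5 null pools against 49.3, 42.3 and 43.6 CPM in controls, and at 51.0 and 51.9 CPM in E14.5 null pools against 40.9, 42.6 and 32.8 CPM in controls. Null pools lay below the controls at E13.5 and above them at E14.5, without overlap, and the difference between stages did not pass over all genes. The matrix gene Smoc2 was at 79.9 and 69.3 CPM in E13.5 null pools against 177, 153 and 154 CPM in controls, and at 119 and 75.8 CPM in E14.5 null pools against 103, 94.6 and 86.0 CPM in controls, apart at E13.5 and overlapping at E14.5. Nfam1, an immune signalling receptor gene, fell by 1.91 on the log2 scale at E13.5 and had a log2 difference of -0.31 at E14.5, which did not pass.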

How the data were processed

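Whole pancreata were pooled, RNA was extracted with TriZol, poly(A) RNA was selected and libraries were made with NEBNext Ultra II, per the labels' protocols. The authors deposited 1 table of whole-number read counts per gene. TopHat, HTSeq, DESeq2 and the mouse build mm10 are named per the submitters' processing notes, while versions, roles and the counting strand were not given in the sources used here. Overlapping antisense genes therefore cannot be told apart, and near-identical genes (actins, globins, trypsins) may share reads. Pools of a group differed by far more than counting error, with a chi-square of 11.1 to 44.4 per gene, so none was a repeat of another.

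Counts were analysed with edgeR 4.0.16 in R 4.3.3: TMM normalization, a low-count filter over the 4 groups that kept 18898 of 54532 genes and 99.9% of counts, and the quasi-likelihood F test on a model with stage and genotype (7 residual degrees of freedom), with Benjamini-Hochberg adjustment over all genes tested and a threshold of 0.05. SE is the log2 difference divided by the square root of F. Stage effects and their difference came from a fit of the 4 groups (6 residual degrees of freedom). An SD over 4 null or 6 control pools spans both stages. Alternatives were other normalizations and filters, DESeq2 1.42.0, limma-voom (limma 3.58.1), replicate blocks and libraries left out. Counts for 18898 genes were also simulated in this design, with no effect of pool number. The changed genes were drawn from those with a mean of at least 1 CPM. In these counts 73 of 100 genes given a 2-fold change and 96 of 100 given a 4-fold change were recovered, beside 8 false calls. These figures hold for that setting only.

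The pool numbers in the labels were taken as pairing the samples only in the fits with a replicate block. The main fit held no such term. Same-numbered null and control pools deviated together from their group means. Correlations were 0.36 and 0.14 at E13.5, and 0.35 and 0.16 at E14.5. With 2 null pools per stage their deviations are equal and opposite, so null 1 and null 2 give no separate evidence. Null 2 correlated more with control 3 (0.25 and 0.22) than with control 2, so the pairing of pools numbered 2 is less clear. What the numbers stand for is not given in the labels.

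Genes named are Fgf9 and 8 reference genes, the 12 largest changes in each direction at a mean of at least 1 CPM and without overlap at each stage, the 8 smallest p in each direction among genes called at neither stage, up to 4 called members of each list (or the 2 with the smallest p), the 5 smallest p for a stage difference, and called homeobox genes. The homeobox group was taken by symbol, since no protein table was used here. Further list members are named to complete a count, after their values were seen. A few genes that this rule names are not reported here. The comparison and the lists were chosen with earlier results of these data known. Promoter windows came from RefSeq, and 5 of 5 genes matched. Gene coordinates are from the GENCODE annotation of GRCm38. Figures were drawn with matplotlib 3.10.9.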

Additional observations from a re-analysis of the deposited data

Results flagged for a closer look

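In 10 of 94 groups of 4 null or 6 control pools, 1 pool stood far from the rest by Dixon's test at its 95% critical value. Chance alone flags about 1 in 20 such groups, and each group here spans both stages.

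Among null pools, the calponin gene Cnn1 was at 20.3 CPM in E14.5 null 1, where the next pool had 4.82 CPM. The calcium channel gene Cacna1d was at 25.2 CPM in E13.5 null 2 with 23.5 CPM next, a small step in a tight group. Ccbe1, a secreted factor of lymphatic growth, was at 58.4 CPM in E14.5 null 2 with 44.1 CPM next.

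Among control pools, E14.5 control 1 was highest for 4 genes. It had 7.07 CPM of Apob (2.29 next), 0.903 CPM of the haem carrier gene Hpx (0.233 next), 8.58 CPM of the complement gene C3 (5.14 next) and 24.5 CPM of Pi15 (16.7 next). E13.5 control 3 was highest for Sox9, at 251 CPM with 162 CPM next, and lowest for Actn2, at 0.497 CPM with 0.857 CPM next. E13.5 control 1 was highest for Prrx1, at 118 CPM with 81.3 CPM next.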

How the results depend on the processing

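All 400 called genes kept their direction under every alternative in which they were tested, while the number called moved. Each alternative refits the same libraries or part of them, so a kept direction describes the calls and does not test them. In every setting, the E14.5 libraries alone among them, 0 of the rises and 2 of the falls passed. Without a low-count filter 792 genes rose and 209 fell, and with DESeq2 621 rose and 170 fell. With the replicate block within each stage 569 rose and 207 fell, and with a block shared over stages 140 fell. The block ended the calls of 3 of 97 named genes and gave calls to 6 that had none. E13.5 libraries alone gave 155 rises, and E14.5 libraries alone 0 rises and 2 falls (edgeR, with 1354 genes at an unadjusted p under 0.05). Without both null pools numbered 1, 56 rose and 46 fell, so that 54.9% of calls were rises against 79.25% with all libraries, while without all 4 pools numbered 1, 399 rose and 169 fell. Leaving out 1 library at a time gave 135 to 514 rises, 35 to 103 falls and 0 to 0 stage differences. Stage differences numbered 51 without a filter, 4 with DESeq2 and 13 with the replicate block. The cause of these shifts was not tested, and some of these fits also held fewer libraries. Of 97 named calls, 66 held in every omission. None of the 97 changed direction, and of the named genes without a call, 10 had another sign in some setting (34 values, none called).

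With 2 null pools per stage, a stage alone carries little precision, and genes under 1 CPM rest on few counts. Controls mix Fgf9 +/+ and Fgf9 +/- embryos in unstated shares, and pools differ in the number of pancreata.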

Other observations

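Genes called in the shared fit, and at neither stage in the fit of the 4 groups, included several outside the groups described. Masp1, a protease of the lectin complement pathway, averaged 15.5 ± 3.2 CPM in null and 5.40 ± 1.4 CPM in control pools (SD, n = 4 and 6), and Trabd2b, a metalloprotease that inactivates Wnt proteins, averaged 6.97 ± 1.6 CPM in null and 2.56 ± 0.73 CPM in control pools. They rose 2.89-fold and 2.76-fold, and Ahnak2 and Pi15 rose 3.38-fold and 2.43-fold. Cacna1d averaged 23.8 ± 0.89 CPM in null and 43.8 ± 7.0 CPM in control pools and fell 1.84-fold. The prostaglandin receptor gene Ptger3 fell 2.11-fold, the matrix gene Sned1 2.67-fold and Ccbe1 1.56-fold. These 8 genes kept their calls in each of the 10 omissions.

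Of 15 complement and coagulation genes, C3 (2.72-fold) and F2 (3.12-fold) rose and 0 fell. Of 9 cartilage and bone genes, the collagen genes Col11a1 and Col2a1 rose, and 0 rose without E13.5 null 1 or E14.5 null 1. Of 9 intestinal genes the hepatic and endocrine factor gene Onecut2 rose, and 0 did without E13.5 null 1, where its log2 difference was 1.74. Of 6 kidney and gonad genes tested, 0 were called.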
